A study of Mus musculus with 12 samples.

Results

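The subunits of the oxidative phosphorylation system were followed in mouse airway smooth muscle cells (SMCs) and in lung PDGFR-β+ cells, each given a scrambled RNA (Scr) or an siRNA against Klf4 (siKlf4). Members were chosen by gene symbol: every Nduf, Sdh, Uqcr, Cox4 to Cox8, Atp5 and mitochondrial mt-Nd, mt-Cytb, mt-Co or mt-Atp gene with a mean of at least 1 TPM (a level corrected for transcript length and scaled to the same total in every library) in either cell type, with processed copies and Ndufa4l2 left out. This gave 92 genes of the 52636 rows of the tables, 79 of them nuclear and 13 encoded by mitochondrial DNA (mtDNA). The nuclear members were 36 genes of complex I, 4 of complex II, 8 of complex III, 14 of complex IV and 17 of complex V, and the mitochondrial members were 7, 0, 1, 3 and 2. Of 96 matching rows, 4 were left out for low values. Cox8b, Cox8c and Cox7b2 were at 0 in both tables, and Cox6a2 lay at 0 in SMCs and just under the limit, at a mean of 0.969 TPM, in PDGFR-β+ cells. The members nearest above the limit were Cox7a1, with SMC group means of 2.53 and 3.31 TPM, and Cox4i2, which entered through the SMC table.

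There were 12 libraries, 3 for each of SMC Scr, SMC siKlf4, PDGFR-β+ Scr and PDGFR-β+ siKlf4. All came from the C57BL/6 strain and were labelled wild type, or Klf4 knockdown after the siRNA. The SMCs were commercial tracheal cells grown in culture with no age given, and the PDGFR-β+ cells were sorted from lungs of 12-week-old mice, which the study's methods describe as reporter-marked cells of tamoxifen-treated Pdgfrb-CreERT2, ROSA26R(Zs/+) mice. The labels do not say that the 3 libraries of a group came from separate cultures or animals. The study describes its bulk sequencing as 3 independent experiments, without saying there whether the cells came from separate animals. The p-values measure the spread between these libraries. Values are listed below in the order of the libraries, the SMC library whose column carries no replicate number coming first.

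Oxidative phosphorylation is the last stage of respiration, carried out in the inner mitochondrial membrane. Complexes I to IV pass electrons from NADH and succinate to oxygen, complexes I, III and IV pump protons as they do so, and complex V, the ATP synthase, uses the proton gradient to make ATP. Complexes I, III, IV and V are built from subunits of both genomes, whereas every complex II subunit is nuclear. Mitochondrial mRNAs are cut from long transcripts that start in the control region and run around the circular genome, the rRNA genes lying first on the heavy-strand transcript and mt-Cytb last. Nuclear subunit genes are known to be driven in part by NRF1, GABPA (NRF2) and YY1.

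The knockdown was checked first. Klf4 measured 89.6, 96.3 and 95.0 TPM in SMC Scr and 26.5, 16.3 and 18.8 TPM in SMC siKlf4, and 144, 146 and 134 TPM against 12.3, 13.8 and 12.8 TPM in PDGFR-β+ cells. The groups did not overlap, with an exact two-sided permutation p of 0.1 in each cell type, the smallest that 3 against 3 can give. Across all genes tested, limma called 15.6% higher and 12.9% lower in SMCs, and 25.3% higher and 15.3% lower in PDGFR-β+ cells (adjusted p under 0.05), and the counts of members below are read against these shares. Smooth muscle markers summed to 1495 to 2284 TPM in SMC Scr and to 3411 to 4174 TPM in SMC siKlf4, and 6 of the 7 tested rose there. In PDGFR-β+ cells the same list summed to 5551 to 6408 TPM in Scr and 4708 to 5003 TPM in siKlf4, where 3 of 7 rose (Myh11, Smtn and Lmod1) and 3 fell (Des, Tagln and Acta2). The 8 mesenchyme markers summed to 5105 to 5337 and 3867 to 4039 TPM in SMC Scr and siKlf4, and to 4190 to 5165 and 3528 to 4817 TPM in PDGFR-β+ cells, with 0 higher and 3 lower in each cell type. Among them Pdgfrb measured 303.5 to 474 TPM in PDGFR-β+ cells and 175 to 216 TPM in SMCs, whereas Pdgfra and Dcn were the higher in SMCs, at 314 to 511 against 151 to 199 TPM and at 246 to 561 against 40.9 to 85.9 TPM. Epithelial markers summed to at most 1.19 TPM in any library, and the macrophage list to 24.8 to 49.5 TPM. The row Gm42418, which takes up reads of cytosolic rRNA and was singled out after its values were seen, held 1.80 to 3.23% of all TPM in SMC Scr and 4.44 to 5.77% in SMC siKlf4, and 3.48 to 6.33% and 3.60 to 6.25% in the PDGFR-β+ groups. Its part in the results was not tested, although leaving the row out and rescaling gave the same counts of mitochondrial members called lower in SMCs.

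The mitochondrially encoded transcripts of SMCs fell after Klf4 knockdown, and the nuclear set as a whole did not move. The 13 mitochondrial members summed to 40425, 33542 and 33948 TPM in SMC Scr and to 21784, 24758 and 20986 TPM in SMC siKlf4, or 62.6% of the Scr mean, with no overlap between groups. The 79 nuclear members summed to 12187, 13092 and 13066 TPM in SMC Scr and 12037, 12850 and 12612 TPM in SMC siKlf4, or 97.8%, and the groups overlapped. In PDGFR-β+ cells the mitochondrial sum was 32925, 31016 and 36956 TPM in Scr and 34661, 41130 and 38691 TPM in siKlf4, and the nuclear sum was 14667, 15077 and 13071 against 14170, 14209 and 13617 TPM. Both pairs of groups overlapped there. Within a library, where no scaling enters, the mitochondrial sum was 2.56 to 3.32 times the nuclear sum in SMC Scr and 1.66 to 1.93 times in SMC siKlf4. In bulk samples fewer cells of a type and less RNA per cell cannot be told apart.

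By gene, limma called 9 of 13 mitochondrial members lower and 0 higher in SMCs (10 had an unadjusted p under 0.05), against 8 lower and 2 higher of 79 nuclear members. The count of 9 was 4 without siKlf4 replicate 3 and 6 without Scr replicate 2, and it was 3 (mt-Nd4, mt-Nd5 and mt-Cytb) with no filter on low values. The nuclear share lower, 10.1%, was near the 12.9% of all genes, and the nuclear share higher, 2.53%, was below the 15.6% of all genes. The median log2 fold change was -0.71 over the mitochondrial members, 0.01 over the nuclear members and 0.02 over all genes tested. Over the 7 abundant mitochondrial mRNAs (mt-Nd1, mt-Nd2, mt-Co1, mt-Nd4, mt-Nd5, mt-Nd6 and mt-Cytb), all 7 were called lower and the median was -0.63. In PDGFR-β+ cells 3 mitochondrial members were called higher and 0 lower (4 had an unadjusted p under 0.05), and 7 nuclear members were called higher and 3 lower of 78 tested. The nuclear shares, 8.97% and 3.85%, were below the 25.3% and 15.3% of all genes. The mitochondrial share higher, 23.1%, was near that 25.3%. Medians were 0.29 over the mitochondrial and -0.02 over the nuclear members, against 0.10 over all genes. Over the 7 abundant mRNAs 1 was called higher with a median of 0.08. The 7 nuclear rises came down to 1 without siKlf4 replicate 1, to 2 without Scr replicate 3, siKlf4 replicate 2 or siKlf4 replicate 3, and to 4 without Scr replicate 1. The 3 nuclear falls became 10 without Scr replicate 3. With median-ratio scaling in place of TPM, the median over all PDGFR-β+ genes moved from 0.10 to 0.01, and the nuclear split changed from 7 higher and 3 lower to 1 higher and 15 lower. Directions of small nuclear changes in that cell type are therefore relative to the TPM scale.

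**Figure D1:**
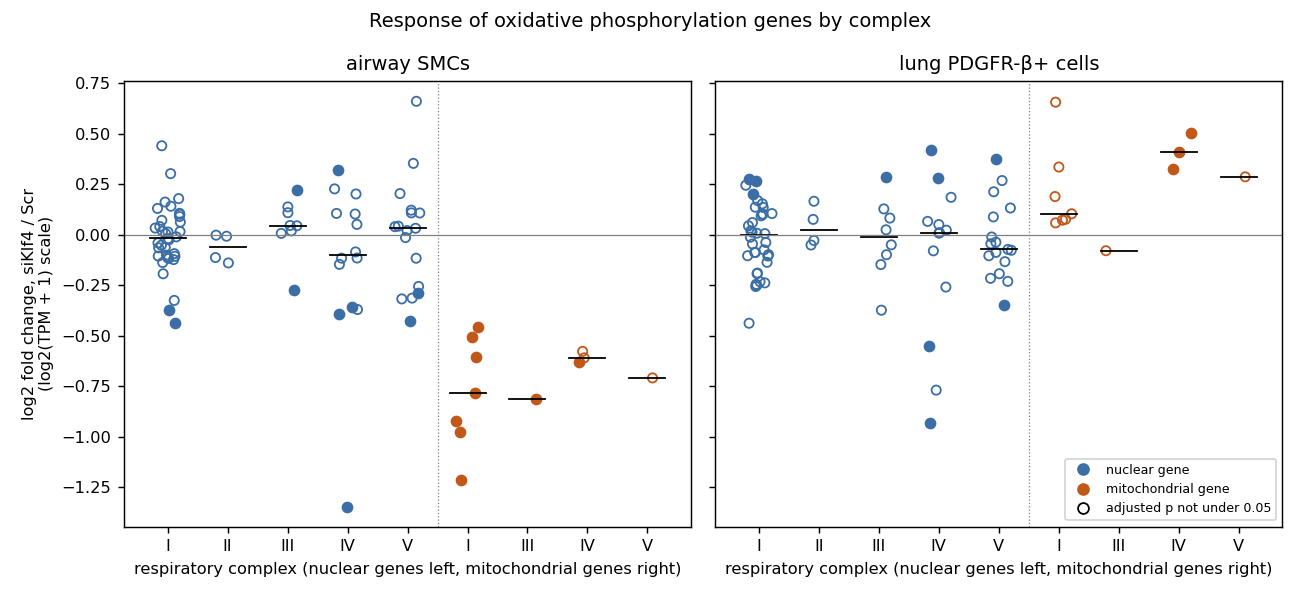
Log2 fold change of siKlf4 over Scr (y axis, log2(TPM + 1) scale) for each member, by complex (x axis), with nuclear genes in blue and mitochondrial genes in orange, filled where limma's adjusted p was under 0.05. Black lines are medians and mt-Atp6 is left out. In SMCs every mitochondrial gene plotted lies below 0, from -0.46 downward, while the nuclear genes spread around 0, and in PDGFR-β+ cells the mitochondrial genes lie between -0.08 and 0.66.

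The 13 mitochondrial genes were not measured equally well. In GENCODE M21 transcripts, 97.6% to 99.9% of the 100-base windows of mt-Co2, mt-Co3, mt-Atp6, mt-Nd3 and mt-Nd4l also occurred in pseudogenes of chromosome 1, which lie between bases 24611535 and 24616197 on mm10. The share was 60.8% for mt-Nd4, 30.8% for mt-Co1, 3.19% for mt-Nd2 and 0 for mt-Nd1, mt-Nd5, mt-Nd6, mt-Cytb and mt-Atp8. Only annotated transcripts were compared, not the sequence of chromosome 1 between the annotated pseudogenes. Whether mt-Atp8 has a copy between those of its neighbours could therefore not be judged. Reads were 100 bases long, so reads of the first group cannot be assigned to one copy. The following stretches, read from the middle of aligned M21 transcripts, are shown because gene and nuclear copy hold the same letters there and over every aligned base (678 of 678 for mt-Atp6 and Gm10925, 681 of 681 for mt-Co2 and Gm28661).
mt-Atp6, transcript bases 311 to 370: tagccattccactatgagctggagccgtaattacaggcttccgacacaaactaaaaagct
Gm10925, the same aligned bases: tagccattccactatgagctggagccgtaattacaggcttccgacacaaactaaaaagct
mt-Co2, transcript bases 313 to 372: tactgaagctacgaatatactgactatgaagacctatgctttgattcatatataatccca
Gm28661, the same aligned bases: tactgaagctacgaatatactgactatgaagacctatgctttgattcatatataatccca
The copies held 0 to 40.3 TPM per library, the same order as the genes they resemble. mt-Co2 was at 11.5 to 50.6 TPM, mt-Co3 at 8.21 to 27.2 TPM, mt-Nd3 at 7.82 to 43.8 TPM and mt-Nd4l at 5.11 to 21.9 TPM, whereas mt-Co1 stood at 8059 TPM or more in every library. mt-Atp6 was at most 0.0142 TPM in 9 libraries and at 29.7, 30.01 and 32.8 TPM in the other 3, so no fold change is given for it. mt-Atp8, which lies between mt-Co2 and mt-Atp6, was at 10.1 to 47.7 TPM. The levels of these 6 genes are uncertain, and the account below rests on the other 7, which were at 405 TPM or more in every library. Of these, mt-Nd4 and mt-Co1 also share part of their sequence with the copies, as given above. Of the uncertain genes, mt-Nd3 and mt-Nd4l were called lower in SMCs (-1.22 ± 0.29 and -0.92 ± 0.21), and mt-Co2 and mt-Co3 higher in PDGFR-β+ cells (0.51 and 0.32), both of the latter calls kept in only 1 of 6 omissions of a library.

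Complex I, NADH dehydrogenase, has 7 mitochondrial subunits in its membrane arm, and all 7 fell in SMCs, mt-Nd3 and mt-Nd4l with uncertain levels. mt-Nd5, at bases 11742 to 13565 of the mitochondrial chromosome, measured 5035, 3867 and 3670 TPM in SMC Scr and 2298, 2195 and 1856 TPM in SMC siKlf4. Every siKlf4 library lay below every Scr library, at 50.5% of the Scr mean (log2 fold change -0.98 ± 0.14 SE, limma adjusted p = 0.00379). mt-Nd4 went from 2733, 2217 and 2325 TPM to 1364, 1551 and 1299 TPM (-0.79 ± 0.10, adjusted p = 0.00312). mt-Nd1 and mt-Nd2, the first mRNAs after the rRNAs, fell less, to 72.7% and 70.3% of the Scr mean (-0.46 ± 0.11, adjusted p = 0.0207, and -0.50 ± 0.11, adjusted p = 0.0141). mt-Nd6, the only mRNA of the other strand, measured 927, 1171 and 789 TPM against 556, 722 and 604 TPM (-0.61 ± 0.16, adjusted p = 0.0286). Its call was lost without the unnumbered library of either group, Scr replicate 2 or siKlf4 replicate 3. The libraries were strand-specific, but the strand setting of the counting is not given in the sources used here, so mt-Nd6 cannot be told apart from transcripts of the opposite strand.

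A fall was also called for the single mitochondrial subunit of complex III and for mt-Co1 of complex IV. The complex IV genes mt-Co2 and mt-Co3, of uncertain level, did not pass in SMCs (limma adjusted p = 0.18 and 0.124). mt-Cytb, which carries the quinone sites of complex III, measured 7906, 6561 and 6827 TPM in SMC Scr and 3829, 4527 and 3769 TPM in SMC siKlf4, or 56.9% of the Scr mean (-0.81 ± 0.11, adjusted p = 0.00299). mt-Co1, the heme-bearing subunit of cytochrome c oxidase, measured 14639, 12293 and 12718 TPM against 8059, 9453 and 8114 TPM, or 64.6% (-0.63 ± 0.10, adjusted p = 0.00598). For neither gene did the groups overlap. The calls of mt-Nd4, mt-Nd5 and mt-Cytb held under all 11 alternatives and all 6 omissions of a library, and that of mt-Nd1 was lost without the unnumbered siKlf4 library or without siKlf4 replicate 3, and that of mt-Nd2 without siKlf4 replicate 3. The call of mt-Co1 held in all 6 omissions and was lost under quantile normalization and with no filter on low values.

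The mitochondrial rRNAs, which are not members and were named after their values were seen, did not follow the mRNAs in SMCs. mt-Rnr2 measured 1463, 1154 and 1245 TPM in SMC Scr and 1211, 1497 and 1228 TPM in SMC siKlf4 (0.03 ± 0.12, adjusted p = 0.879). mt-Rnr1 measured 698, 602 and 661 TPM against 585, 697 and 602 TPM (-0.06 ± 0.09, adjusted p = 0.657). Both pairs of groups overlapped. The ratio of mt-Nd1 to mt-Rnr2 within a library, which does not depend on scaling, was 3.77 to 4.02 in SMC Scr and 2.66 to 2.97 in SMC siKlf4. Libraries were made from oligo-dT selected RNA, so levels of mitochondrial rRNAs and mRNAs alike depend on capture and are not total amounts.

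**Figure D2:**
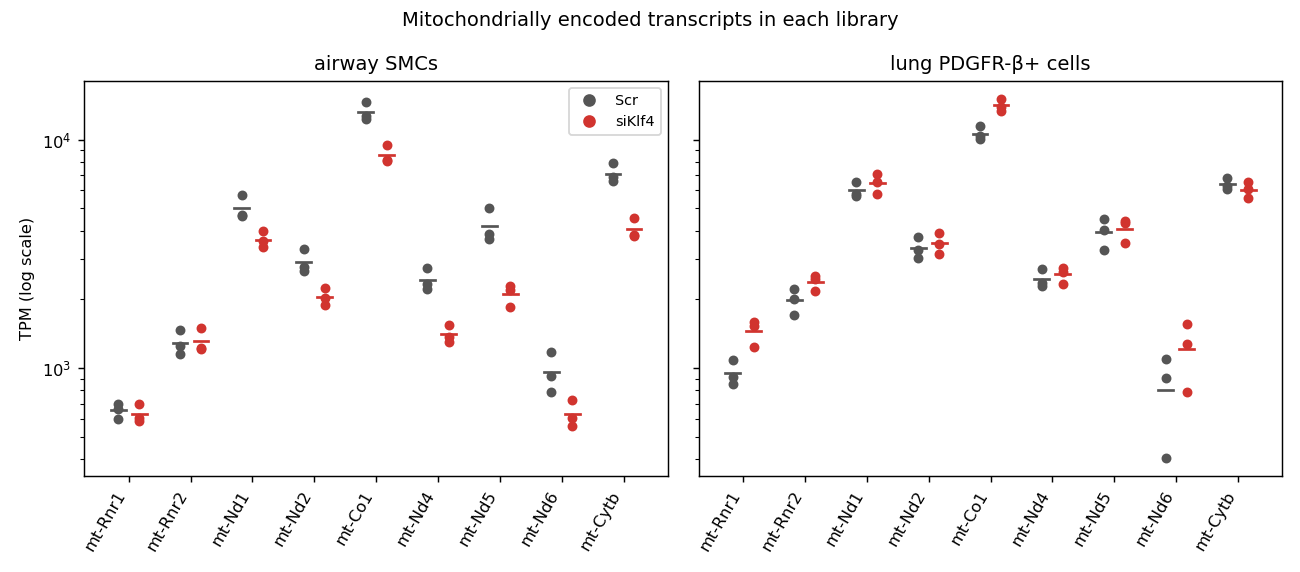
TPM (y axis, log scale) of the mitochondrial rRNAs and of the 7 abundant mRNAs, 1 point per library, Scr in grey and siKlf4 in red, with bars at group means (n = 3). In SMCs the red points of each mRNA lie below the grey ones and the rRNAs overlap, and in PDGFR-β+ cells mt-Co1 and mt-Rnr1 are separated upward.

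In PDGFR-β+ cells most mitochondrial mRNAs stayed within the spread of the libraries. mt-Nd5 measured 4033, 3277 and 4479 TPM in Scr and 3526, 4403 and 4307 TPM in siKlf4 (0.06 ± 0.14, adjusted p = 0.763), and mt-Cytb 6060, 6242 and 6804 against 5537, 6490 and 6072 TPM (-0.08 ± 0.09, adjusted p = 0.505). mt-Nd1, mt-Nd2 and mt-Nd4 had log2 fold changes of 0.10, 0.08 and 0.07, and their groups overlapped. mt-Co1 was the exception, at 10371, 10060 and 11448 TPM in Scr and above every one of these in siKlf4, a mean of 14121 ± 854 TPM (SD, n = 3) or 133% of Scr (0.41 ± 0.09, adjusted p = 0.00845). mt-Co1 thus had opposite calls in the cell types, although under quantile normalization neither passed. mt-Rnr1 also rose, from 918, 854 and 1083 TPM to 1243, 1584 and 1522 TPM (0.61 ± 0.12, adjusted p = 0.0068). mt-Nd6 varied from 405 to 1564 TPM and did not pass the test (adjusted p = 0.217).

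The response of the mitochondrial genes differed between the cell types. In a joint fit of all 12 libraries, the SMC response was below the PDGFR-β+ response for 10 of 13 mitochondrial members and above it for 0 (all 13 had an unadjusted p under 0.05), where 18.5% and 14.5% of all genes were called in those directions. Among the 7 abundant mRNAs the difference was past the threshold for 6, from -1.04 ± 0.14 for mt-Co1 (adjusted p = 0.000208) to -0.56 ± 0.16 for mt-Nd1 (adjusted p = 0.017), and was -1.26 ± 0.48 for mt-Nd6 (adjusted p = 0.0615). Of 78 nuclear members tested, 3 were called above and 6 below, shares of 3.85% and 7.69%.

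**Figure D3:**
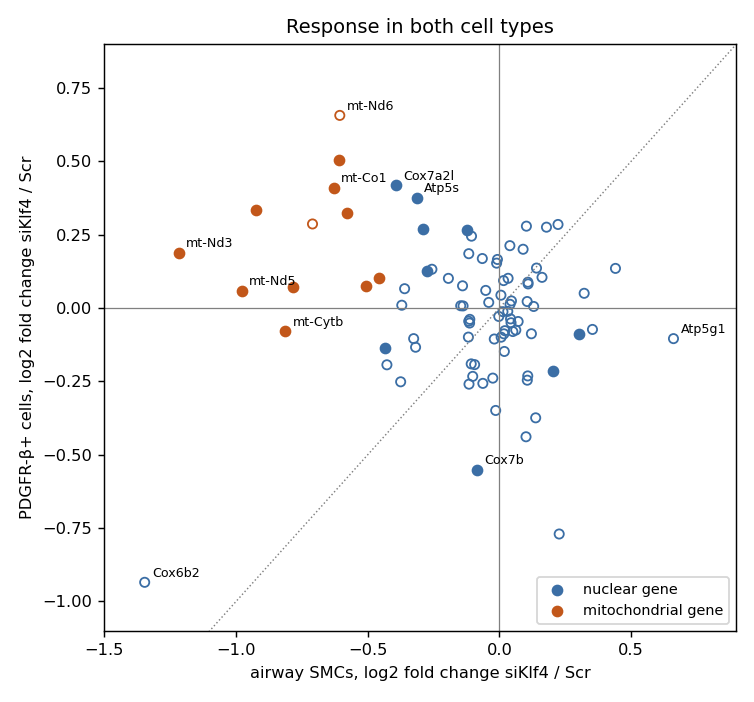
Log2 fold change of siKlf4 over Scr in SMCs (x axis) against that in PDGFR-β+ cells (y axis) for each member tested in both, filled where the difference between cell types had a limma adjusted p under 0.05, with equality as the dotted line and mt-Atp6 left out. Mitochondrial genes lie left of 0, most near or above 0 on the y axis, and Cox6b2 lies low on both.

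The size of the SMC change followed the order of the genes on the heavy-strand transcript, a pattern noticed in these values. From the start of mt-Rnr1, the mRNAs mt-Nd1, mt-Nd2, mt-Co1, mt-Nd4, mt-Nd5 and mt-Cytb begin 2681, 3844, 5258, 10097, 11672 and 14075 bases away, and their SMC log2 fold changes were -0.46, -0.50, -0.63, -0.79, -0.98 and -0.81. The Spearman coefficient over these 6 genes was -0.943, given as a description only, since the genes share transcripts and libraries. In PDGFR-β+ cells the same coefficient was -0.829, over changes of -0.08 to 0.41. The ratio of mt-Nd5 to mt-Nd1 within a library was 0.878, 0.833 and 0.782 in SMC Scr and 0.639, 0.551 and 0.550 in SMC siKlf4, without overlap. In PDGFR-β+ cells it was 0.694, 0.580 and 0.683 against 0.611, 0.620 and 0.661, with overlap. The ratio of mt-Cytb to mt-Nd1 was 1.38 to 1.45 in SMC Scr and 1.07 to 1.14 in SMC siKlf4. It was 1.04 to 1.10 and 0.915 to 0.959 in PDGFR-β+ Scr and siKlf4, so this ratio was lower with siKlf4 in both cell types, by less in the second.

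**Figure D4:**
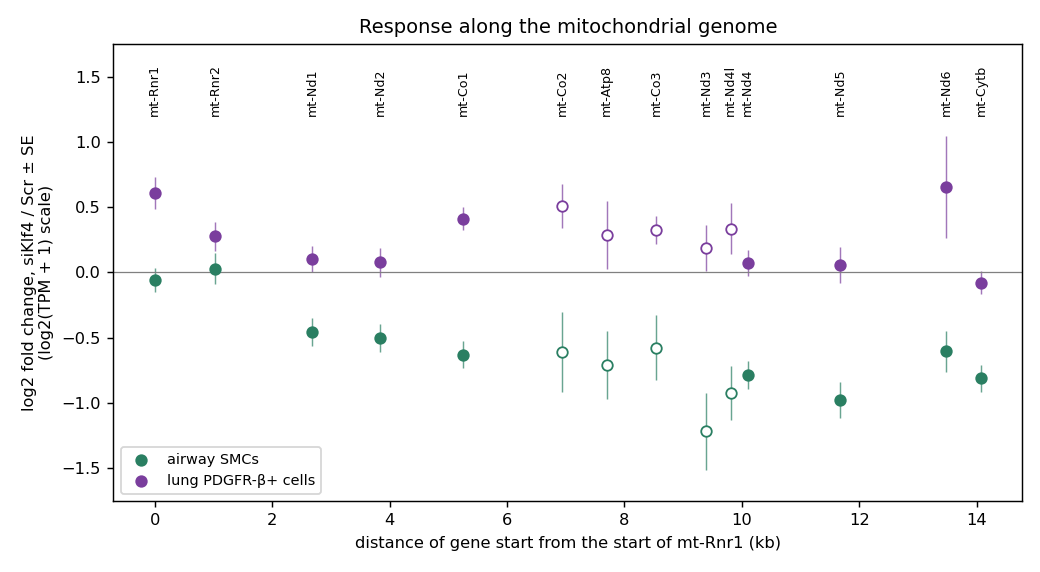
Log2 fold change of siKlf4 over Scr ± SE (y axis) by distance of each gene's start from the start of mt-Rnr1 in kb (x axis), SMCs in green and PDGFR-β+ cells in purple, with open circles for genes of uncertain level and mt-Atp6 left out. The filled SMC points run from near 0 at the rRNAs to -0.98 at mt-Nd5.

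Transcripts of genes that transcribe, copy or process mtDNA did not move as a group in SMCs. Of 25 such genes, 3 were called higher and 2 lower (12.0% and 8.0%, against 15.6% and 12.9% of all genes), and the median log2 fold change was 0.02. Tfam, which packages mtDNA and starts its transcription, measured 15.9, 16.0 and 14.0 TPM in SMC Scr and 17.6, 14.99 and 16.2 TPM in SMC siKlf4 (adjusted p = 0.557). Polrmt, the mitochondrial RNA polymerase, and Lrpprc, which stabilises mitochondrial mRNAs, did not pass either (0.21 ± 0.13, adjusted p = 0.274, and 0.16 ± 0.08, adjusted p = 0.178). Mterf2, of the mitochondrial transcription termination factor family, fell from 15.6, 11.4 and 10.7 TPM to 6.68, 5.13 and 5.00 TPM (-1.03 ± 0.17, limma adjusted p = 0.00604). This response differed from that in PDGFR-β+ cells (adjusted p = 0.000548). Mterf4 of the same family rose in SMCs (0.42 ± 0.13, adjusted p = 0.0477), and Mterf3 did not pass (adjusted p = 0.328). Fastkd3 of the same list also rose in SMCs (0.67 ± 0.17, adjusted p = 0.0265). In PDGFR-β+ cells 3 of the 25 rose and 1 fell (12.0% and 4.0%, against 25.3% and 15.3% of all genes). There Pnpt1, a mitochondrial polynucleotide phosphorylase, rose from 29.3, 30.9 and 31.1 TPM to 96.2, 89.7 and 85.2 TPM (1.54 ± 0.07, adjusted p = 1.33e-05).

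Among the nuclear subunits, most changes were small. In SMCs 64 of 79, and in PDGFR-β+ cells 70 of 78, had a log2 fold change within 0.3 of 0, with a median SE of 0.09 in each. The median Scr level was 135 TPM in SMCs and 147 TPM in PDGFR-β+ cells, and the highest in both was Atp5b, the catalytic beta subunit of ATP synthase. Of the 78 tested in both, 61 were called in neither, 1 rose in both (Uqcrfs1), 1 fell in both (Cox6b2) and 1 was called in opposite directions (Cox7a2l). No share of all genes with such joint calls is given here, so whether these counts are high or low was not tested.

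Cox6b2, an isoform of a complex IV subunit best known from testis, showed the largest fall in log2(TPM + 1) among the nuclear members tested in each cell type. Its gene lies on chromosome 7 (mm10, bases 4751792 to 4753094, minus strand). It measured 55.7, 57.1 and 69.7 TPM in SMC Scr and 18.8, 23.5 and 28.2 TPM in SMC siKlf4, or 38.6% (-1.35 ± 0.16, adjusted p = 0.00202). In PDGFR-β+ cells it measured 10.8, 6.87 and 7.79 TPM against 4.21, 3.59 and 3.87 TPM, or 45.9% (-0.93 ± 0.16, adjusted p = 0.00349). The groups did not overlap in either cell type, and the difference between the responses did not pass the test (-0.41 ± 0.24, adjusted p = 0.203). Its common counterpart Cox6b1 was at 369, 389 and 408 against 347, 375 and 354 TPM in SMCs (adjusted p = 0.231). The share of Cox6b2 in the sum of both went from 12.8 to 14.6% in SMC Scr to 5.15 to 7.38% in SMC siKlf4.

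Cox7a2l, known as SCAF1, which joins complexes III and IV into supercomplexes, was called in opposite directions. Its gene lies on chromosome 17 (bases 83501918 to 83517330, minus strand). It measured 256, 259 and 243 TPM in SMC Scr and 194, 196 and 186 TPM in SMC siKlf4 (-0.39 ± 0.06, adjusted p = 0.00461). In PDGFR-β+ cells it measured 229, 234 and 229 TPM in Scr and 338, 290 and 300 TPM in siKlf4 (0.42 ± 0.07, adjusted p = 0.00365). The groups were separate in both, and the difference between the responses was -0.81 ± 0.09 (adjusted p = 6.49e-05). In its transcripts 7.77% of windows were shared with the pseudogene Gm6969.

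The rest of complex IV was mixed. Cox7b, a small structural subunit on chromosome X (bases 106015700 to 106022450, plus strand), fell in PDGFR-β+ cells from 219, 208 and 192 TPM to 137, 145 and 140 TPM (-0.55 ± 0.07, adjusted p = 0.000923). In SMCs it measured 171, 167 and 165 against 162, 162 and 150 TPM (adjusted p = 0.331), and the responses differed by 0.46 ± 0.09 (adjusted p = 0.00206). Cox5a, which binds regulators on the matrix side, rose in SMCs from 193, 191 and 220 TPM to 249, 269 and 236 TPM (0.32 ± 0.08, adjusted p = 0.0274). Outside the naming rule, Cox6c fell in SMCs (-0.36 ± 0.09, adjusted p = 0.021) and Cox7c rose in PDGFR-β+ cells (0.28 ± 0.08, adjusted p = 0.0269). The calls of Cox7b, Cox7a2l and Cox6b2 held in all 6 omissions of a library, whereas those of Cox5a and Cox6c held in 2 and that of Cox7c in 1. Of the windows of Cox7c transcripts 16.2% were shared with other genes. The sum of the 14 nuclear complex IV genes was 91.6% of Scr in SMCs and 101% in PDGFR-β+ cells.

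Other tissue isoforms of complex IV did not pass the test. Cox4i1, the common form, measured 397, 335 and 337 TPM in SMC Scr and 329, 308 and 325 TPM in SMC siKlf4 (adjusted p = 0.221). Cox4i2, the form induced by low oxygen and typical of lung, lay at 4.88 to 10.8 TPM in SMCs with overlapping groups (adjusted p = 0.583). In PDGFR-β+ cells it had too low a mean to be tested, and was at 1.14, 1.46 and 1.17 TPM in Scr and listed at 0 in all 3 siKlf4 libraries. Cox6a1 measured 367, 489 and 475 against 327, 335 and 360 TPM in SMCs, without overlap but just missing the threshold (-0.37 ± 0.12, adjusted p = 0.0508). Cox7a1, the heart and muscle form, stayed at or under 4.52 TPM and reached 45.5% of Scr in PDGFR-β+ cells without passing (-0.77, adjusted p = 0.113), and Cox7a2 and Cox8a gave adjusted p values of 0.399 and 0.812 in SMCs and 0.928 and 0.61 in PDGFR-β+ cells.

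In nuclear complex I, 2 of 36 members fell in SMCs and 0 rose (5.6% and 0%, against 12.9% and 15.6% of all genes). An unadjusted p under 0.05 was found for 5. Ndufb4, an accessory subunit of the membrane arm on chromosome 16 (bases 37647170 to 37654453, minus strand), measured 50.4, 48.2 and 50.1 TPM in SMC Scr and 37.2, 35.1 and 36.8 TPM in SMC siKlf4 (-0.44 ± 0.07, adjusted p = 0.00467). In PDGFR-β+ cells its groups overlapped narrowly, at 56.5 to 63.1 against 51.3 to 56.5 TPM (adjusted p = 0.197). The other was Ndufb11, also of the membrane arm, at 116, 126 and 123 against 94.9, 88.6 and 97.1 TPM (-0.37 ± 0.07, adjusted p = 0.00796). In PDGFR-β+ cells 3 of 36 rose and 0 fell (8.3% and 0%, against 25.3% and 15.3% of all genes), with 6 at an unadjusted p under 0.05. The largest rise was that of Ndufb6, from 159, 142 and 139 TPM to 183, 172 and 178 TPM (0.28 ± 0.07, adjusted p = 0.0219). The others were Ndufc2 and Ndufs3 (0.26 and 0.20). Under median-ratio scaling none of these 3 rises kept its call. Ndufb4 and Ndufb11 held in all 6 omissions of a library, Ndufb6 and Ndufc2 in 2 and Ndufs3 in 0. Of the windows of Ndufb4 transcripts 16.0% were shared with Ndufb4c, and of those of Ndufb6 24.0% with Smim27.

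Ndufa4, named as a complex I subunit and since assigned to complex IV, was counted here under complex I by its symbol and so is not in the complex IV sum. It did not pass in either cell type (adjusted p = 0.314 and 0.106), so its place changes no count of calls. Its paralog Ndufa4l2, a target of hypoxia-inducible factor that lies outside the member rule, showed a much larger response. On chromosome 10 (bases 127514967 to 127517154, plus strand), it measured 45.3, 34.01 and 42.5 TPM in PDGFR-β+ Scr and 2.94, 1.73 and 0.985 TPM in siKlf4 (-3.90 ± 0.24, adjusted p = 3.65e-05). In SMCs it measured 56.5, 69.8 and 70.8 against 48.0, 50.5 and 52.7 TPM (-0.37 ± 0.10, adjusted p = 0.0338), and the responses differed by 3.53 (adjusted p = 9.27e-06). It fell in both cell types, and by more in PDGFR-β+ cells.

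Complex II, succinate dehydrogenase, also works in the citric acid cycle. By limma 0 of its 4 subunits passed the test in either cell type. At an unadjusted p under 0.05 there were 0 of 4 in SMCs and 1 of 4 in PDGFR-β+ cells. Of all genes, 15.6% were called higher and 12.9% lower in SMCs, and 25.3% and 15.3% in PDGFR-β+ cells. Sdha, the flavoprotein, measured 195, 191 and 173 against 202, 180 and 175 TPM in SMCs. Sdhb, the iron-sulfur subunit, had log2 fold changes of -0.14 ± 0.06 and 0.08 ± 0.07, and Sdhd, a membrane anchor, of -0.11 ± 0.07 and -0.05 ± 0.08. Sdhc, the other anchor, gave -0.03 ± 0.08 in PDGFR-β+ cells and overlapped in SMCs too.

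In complex III, Uqcrfs1, the Rieske iron-sulfur protein, rose in both cell types. It measured 91.0, 96.9 and 97.3 against 109, 110 and 115 TPM in SMCs (0.22 ± 0.06, adjusted p = 0.0365) and 103, 107 and 90.5 against 123, 119 and 123 TPM in PDGFR-β+ cells (0.28 ± 0.08, adjusted p = 0.024). Both groups were separate, but the SMC call was lost when any 1 of the 6 libraries was left out, and the PDGFR-β+ call held in 2 of 6 omissions and not under median-ratio scaling. Uqcrh, the hinge protein, fell in SMCs from 253, 238 and 225 TPM to 197, 214 and 182 TPM (-0.27 ± 0.08, adjusted p = 0.0448), a call kept in only 1 of 6 omissions of a library.

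In complex V, Atp5l, subunit g of the membrane sector, measured 313, 296 and 294 TPM in SMC Scr and 213, 230 and 228 TPM in SMC siKlf4 (-0.43 ± 0.06, adjusted p = 0.00423). Atp5h, subunit d of the peripheral stalk, fell in SMCs (-0.29 ± 0.07, adjusted p = 0.0201) and measured 422, 365 and 390 against 494, 507 and 420 TPM in PDGFR-β+ cells (adjusted p = 0.0554), the responses differing by -0.56 ± 0.12 (adjusted p = 0.00406). Its transcripts share 11.5% of windows with Gm10250. Atp5j2, subunit f, fell in PDGFR-β+ cells from 223, 231 and 217 TPM to 153, 209 and 168 TPM (-0.35 ± 0.11, adjusted p = 0.0441). Atp5s, a factor that couples the enzyme, rose there from 9.38, 8.99 and 7.30 TPM to 11.1, 11.2 and 11.7 TPM (0.38 ± 0.11, adjusted p = 0.0313). The call of Atp5l held in all 6 omissions of a library, that of Atp5h was lost without siKlf4 replicate 2 or 3, and those of Atp5j2 and Atp5s held in 1 and 2. The 3 genes Atp5g1, Atp5g2 and Atp5g3 encode the same ring subunit c. Atp5g1 had the largest nuclear increase in SMCs by value, from 52.2, 74.6 and 80.9 TPM to 89.2, 96.9 and 146 TPM, without overlap and without passing the test (0.66 ± 0.23, adjusted p = 0.0665). Atp5g2 and Atp5g3 did not pass in either cell type, and the responses of Atp5g3 differed by 0.42 ± 0.14 (adjusted p = 0.0418).

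**Figure D5:**
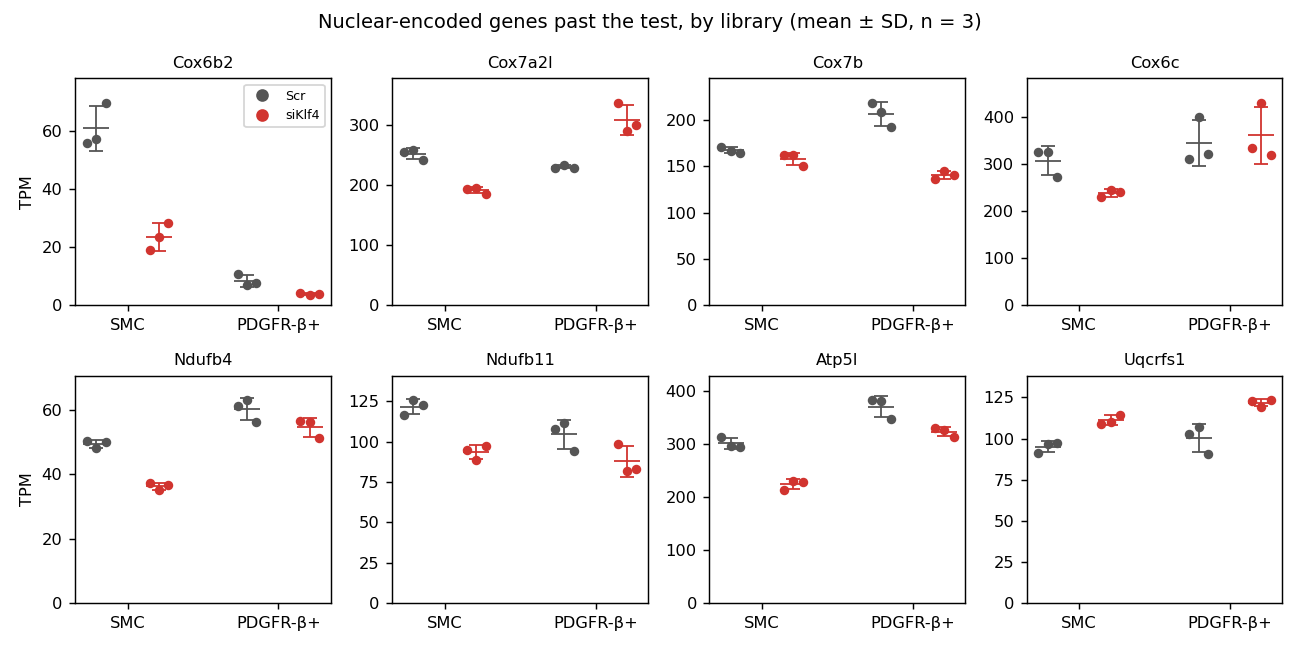
TPM (y axis, from 0) of 8 nuclear members called in at least 1 cell type, Scr in grey and siKlf4 in red, 1 point per library with mean ± SD (n = 3). Cox6b2 is lower with siKlf4 in both cell types, Cox7a2l moves down in SMCs but up in PDGFR-β+ cells, and Cox7b is lower in PDGFR-β+ cells.

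The promoters of these members were read from RefSeq (GRCm38.p6), which held 64 of the 79 nuclear symbols. The 150 bases before the RefSeq start are shown for the gene that fell in both cell types and the 1 called in opposite directions. Then come the strongest called fall in PDGFR-β+ cells apart from Cox6b2 and the strongest called complex I fall in SMCs. The last is the gene that rose in both. RefSeq starts can differ from those of GENCODE M21, used for gene positions. For Cox7a2l the stretch lies inside the GENCODE gene, which starts at base 83517330 on the minus strand. The Ndufb4 and Uqcrfs1 stretches overlap their GENCODE genes in part. Capitals mark matches, on either strand, to the motifs GCGCANGCG (NRF1), CCGGAAG (GABPA and other ETS factors), AAGATGGC (YY1), CCAAT (NFY), GGGCGG (the GC box of SP and KLF factors) and GGGNGNGGC (KLF4), of which the last can overlap the GC box.
Cox6b2, chr7:4753095-4753244, minus strand: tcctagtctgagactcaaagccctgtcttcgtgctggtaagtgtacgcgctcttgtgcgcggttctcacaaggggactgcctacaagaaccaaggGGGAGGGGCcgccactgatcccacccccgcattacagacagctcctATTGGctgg
Cox7a2l, chr17:83514334-83514483, minus strand: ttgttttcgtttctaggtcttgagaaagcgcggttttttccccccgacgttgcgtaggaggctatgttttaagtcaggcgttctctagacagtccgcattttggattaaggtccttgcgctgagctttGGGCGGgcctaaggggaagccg
Cox7b, chrX:106015550-106015699, plus strand: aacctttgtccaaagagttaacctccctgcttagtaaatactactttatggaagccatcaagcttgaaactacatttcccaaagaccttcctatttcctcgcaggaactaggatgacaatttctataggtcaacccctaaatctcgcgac
Ndufb4, chr16:37654369-37654518, minus strand: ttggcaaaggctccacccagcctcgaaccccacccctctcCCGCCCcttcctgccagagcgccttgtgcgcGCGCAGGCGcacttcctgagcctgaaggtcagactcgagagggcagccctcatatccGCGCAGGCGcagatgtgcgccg
Uqcrfs1, chr13:30545317-30545466, minus strand: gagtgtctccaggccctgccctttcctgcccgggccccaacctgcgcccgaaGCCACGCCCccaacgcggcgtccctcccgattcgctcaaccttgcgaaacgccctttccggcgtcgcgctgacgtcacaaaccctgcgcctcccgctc
Over whole promoters of 300 bases, the NRF1 motif was in 30.4% of the 69 promoters of nuclear members and 6.25% of all 32851 promoters. The ETS motif was in 23.2% and 8.86%, the YY1 motif in 13.0% and 2.75%, CCAAT in 42.0% and 37.4%, the GC box in 37.7% and 35.7%, and the KLF4 motif in 44.9% and 25.8%. Of the 9 promoters of members called in SMCs, 4 held the KLF4 motif, as did 4 of the 9 of members called in PDGFR-β+ cells. That is 44.4% in each, near the 44.9% of all nuclear members. The stretch shown for Cox7b held none of the motifs. A match is a description of letters and not of binding.

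The factors known for these promoters were themselves expressed. Of 9 nuclear regulators tested in SMCs 4 rose (44.4%, against 15.6% of all genes) and 0 fell. Of 8 tested in PDGFR-β+ cells 3 rose (37.5%, against 25.3% of all genes) and 0 fell. Nrf1 rose in both, from 12.8, 12.6 and 12.9 TPM to 17.04, 16.2 and 17.6 TPM in SMCs (0.38 ± 0.08, adjusted p = 0.0136) and from 14.6, 12.7 and 13.9 TPM to 19.6, 19.5 and 18.5 TPM in PDGFR-β+ cells (0.46 ± 0.09, adjusted p = 0.00519). Gabpa rose in PDGFR-β+ cells, from 56.2, 51.6 and 54.1 TPM to 86.8, 82.4 and 84.7 TPM (0.64 ± 0.07, adjusted p = 0.000369), and the responses differed (adjusted p = 0.00331). Its partner Gabpb1 rose in SMCs (0.55 ± 0.12, adjusted p = 0.0172). Hif1a, the oxygen-regulated factor, rose in SMCs from 331, 357 and 328 TPM to 437, 450 and 447 TPM (0.39 ± 0.06, adjusted p = 0.00495) and measured 286, 221 and 294 against 218, 215 and 198 TPM in PDGFR-β+ cells (adjusted p = 0.0521). Ppargc1a, the coactivator PGC-1α, stayed under 3 TPM.

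Other genes of the pathway were counted from lists. Of all genes tested, 15.6% were called higher and 12.9% lower in SMCs, and 25.3% and 15.3% in PDGFR-β+ cells. Of 47 assembly factors, 4 rose and 2 fell in SMCs (8.5% and 4.3%), with a median of 0.04. In PDGFR-β+ cells 9 rose and 7 fell (19.1% and 14.9%), with a median of 0.01. Tmem70, which is needed to build ATP synthase, rose in SMCs from 19.5, 22.3 and 22.8 TPM to 55.2, 58.9 and 62.6 TPM (1.41 ± 0.09, adjusted p = 0.000581). Cox17, the copper chaperone of complex IV, fell in PDGFR-β+ cells from 108, 61.8 and 47.4 TPM to 26.1 TPM or less (-1.66 ± 0.28, adjusted p = 0.00321). Of the 6 subunits outside the symbol rule, Cycs, cytochrome c, rose in SMCs from 23.0, 24.6 and 25.0 TPM to 33.6, 32.3 and 33.2 TPM (0.43 ± 0.07, adjusted p = 0.00623). Of 13 citric acid cycle genes 4 rose (30.8%) and 0 fell in SMCs, and 1 rose and 2 fell in PDGFR-β+ cells (7.7% and 15.4%). Cs, citrate synthase, rose in both cell types (0.36 ± 0.06 and 0.51 ± 0.07). Of 78 mitochondrial ribosomal protein genes, 10 rose and 1 fell in SMCs (12.8% and 1.3%). In PDGFR-β+ cells 20 of them rose and 6 fell (25.6% and 7.7%), the share higher being near that of all genes. Of 93 cytosolic ribosomal protein genes tested, 3 rose and 25 fell in SMCs (3.2% and 26.9%), with a median of -0.16. In PDGFR-β+ cells 15 rose and 3 fell (16.1% and 3.2%).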

How the data were processed

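RNA from 3 Scr and 3 siKlf4 libraries of each cell type was oligo-dT selected, made into strand-specific libraries and sequenced. The authors aligned the reads with HISAT2 to mm10 and computed TPM with StringTie, and deposited 1 TPM table per cell type. TPM keep no read depth, so the counting error behind a value is unknown and no interval from counts is given. The study's own count test, DESeq2, was not used here.

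The members and lists were chosen with earlier results of these data known. Values were tested as log2(TPM + 1) with limma 3.58.1 (R 4.3.3; eBayes with a mean-variance trend, two-sided, Benjamini-Hochberg over every gene whose mean reached 1 TPM in that cell type), 6 libraries per cell type. A fold change on this scale understates the change of low genes. The difference between responses was an interaction term over 12 libraries. The fit was tested on simulated data.

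Named by rule were Klf4, each mitochondrial member, per complex the largest rise and fall called without overlap, isoform pairs, members called in opposite directions, the 5 largest called interactions, complex II, regulators, and list genes where a list is described. Other names were chosen after their values were seen. Gene positions and shared windows came from GENCODE M21, in which 76 members had the identifier and version of the tables. Alternatives changed the pseudocount, filter, scaling, variance model, libraries, block and fold limit.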

Additional observations from a re-analysis of the deposited data

Results flagged for a closer look

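These results were singled out because the response to siKlf4 differed between SMCs and PDGFR-β+ cells by limma's interaction term. Groups of 3 are too small for the check on single outlying libraries. Values are the SMC log2 fold change minus the PDGFR-β+ one. Among mitochondrial members it was -0.56 for mt-Nd1, -0.58 for mt-Nd2, -1.41 for mt-Nd3, -0.86 for mt-Nd4, -1.04 for mt-Nd5, -1.26 for mt-Nd4l, -0.73 for mt-Cytb, -1.04 for mt-Co1, -1.12 for mt-Co2 and -0.90 for mt-Co3, of which mt-Nd3, mt-Nd4l, mt-Co2 and mt-Co3 have levels made uncertain by nuclear copies. Among nuclear members it was -0.81 for Cox7a2l, -0.69 for Atp5s, -0.56 for Atp5h, -0.40 for Uqcrh, -0.30 for Ndufb4, 0.46 for Cox7b and 0.42 for Atp5g3. Outside the naming rule it was also past the threshold for Ndufc2 (-0.39 ± 0.09, limma adjusted p = 0.00828) and Ndufs8 (0.39 ± 0.13, adjusted p = 0.0413). The differences of mt-Nd3, mt-Nd4, mt-Nd5, mt-Nd4l, Ndufc2, Cox7a2l, Cox7b, Atp5h and Atp5s were kept under every alternative fit and every omission of a library, although those of Ndufc2 and Cox7b are below the added log2 limit of 0.5, and those of Ndufb4, Ndufs8, Uqcrh, Atp5g3, mt-Co2 and mt-Co3 were each lost in at least 6 of 12 omissions.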

How the results depend on the processing

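Counts of members called, in the order nuclear higher, nuclear lower and mitochondrial lower in SMCs, were 2, 8 and 9. With no filter on low values 1 nuclear gene was higher and 3 mitochondrial genes lower. Nuclear rises numbered 1 with median-ratio scaling, quantile normalization or no variance trend, 5 in a single fit of both cell types and 6 when the fit allowed for whether an SMC column was numbered, which gave 14 nuclear falls. With a log2 limit of 0.5 as well, 0 nuclear genes were higher and 1 lower. In PDGFR-β+ cells 7 nuclear members were higher, 3 lower and 3 mitochondrial members higher. Nuclear rises numbered 1 with median-ratio scaling, 4 with no variance trend and 0 with the log2 limit. Nuclear falls numbered 15 with median-ratio scaling, 8 with quantile normalization, 6 in the single fit and 5 without Gm42418, an alternative chosen after seeing the data. Mitochondrial rises numbered 0 with no filter or quantile normalization and 1 with median-ratio scaling, no variance trend, the single fit or the log2 limit. For the difference between cell types, the 3 nuclear members above became 1 with no variance trend and 0 with the log2 limit, the 6 nuclear members below became 3 with that limit, and the 10 mitochondrial members below became 6 with no filter or quantile normalization. The cause of these shifts was not tested.

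Leaving out 1 library at a time gave 0 to 3 nuclear rises, 5 to 9 nuclear falls and 4 to 9 mitochondrial falls in SMCs. In PDGFR-β+ cells it gave 1 to 7 nuclear rises, 2 to 10 nuclear falls and 1 to 2 mitochondrial rises. For the difference it gave 1 to 8 nuclear members above (8 without PDGFR-β+ Scr replicate 3), 4 to 9 below and 8 to 10 mitochondrial members below. Mitochondrial counts in the other direction were 0 under every alternative. Over all genes tested, deviations of same-numbered PDGFR-β+ libraries from their group means correlated at 0.073, -0.016 and 0.004. For PDGFR-β+ libraries of unlike number the values ran from -0.098 to 0.083. In SMCs the value was 0.107 for both numbered pairs, which 2 libraries per group force to be equal. The share of Gm42418 rose with replicate number, at 3.48, 4.96 and 6.33% in PDGFR-β+ Scr and 3.60, 4.89 and 6.25% in siKlf4. Whether same-numbered libraries were processed together is not stated, and the correlations do not settle it. With the replicate block, which in SMCs also left out the 2 unnumbered libraries, SMC counts were 2, 7 and 6 (2, 9 and 11 over the same numbered libraries with no block), PDGFR-β+ counts were 5 nuclear rises, 6 nuclear falls and 1 mitochondrial rise, and for the difference 2 nuclear members were above, 7 below and 7 mitochondrial members below. Read depth is unknown, so the precision rests on the spread of 3 libraries.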

Other observations

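Several assembly factors of complex IV and of the inner membrane responded in ways not yet described. Cox10, an enzyme on the way to heme A, and Cox11, which delivers copper to complex IV, rose in both cell types. In SMCs they rose by 0.37 ± 0.11 and 0.40 ± 0.09 on the log2 scale (limma adjusted p = 0.0467 and 0.0156). In PDGFR-β+ cells they rose by 0.41 ± 0.09 and 0.38 ± 0.08 (adjusted p = 0.00898 and 0.00831). Cox15, the next enzyme of heme A synthesis, rose in PDGFR-β+ cells from 13.1, 12.9 and 13.4 TPM to 22.2, 21.8 and 19.8 TPM (0.66 ± 0.08, adjusted p = 0.000856). Other complex IV factors of the list fell in PDGFR-β+ cells: beside Cox17, Cox16 went from 27.6, 25.5 and 26.7 TPM to 13.4, 10.7 and 12.2 TPM (-1.08 ± 0.10, adjusted p = 0.000215), and Cox19 and Cox20 had log2 fold changes of -0.55 ± 0.15 (adjusted p = 0.0204) and -0.54 ± 0.09 (adjusted p = 0.00244). None of these 4 passed in SMCs. Cox15 in SMCs measured 13.1 to 14.2 TPM and 14.1 to 14.5 TPM, with overlap, and the responses differed (adjusted p = 0.00109).

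Ndufaf5, an assembly factor of complex I, and Oxa1l, which inserts mitochondrially made proteins into the inner membrane, were called in opposite directions. Ndufaf5 measured 21.5, 20.2 and 19.8 TPM in SMC Scr and 17.5, 14.3 and 15.5 TPM in SMC siKlf4, against 15.4, 14.98 and 14.7 TPM and 22.6, 21.9 and 22.7 TPM in PDGFR-β+ cells. The groups were separate in both, and the responses differed by -0.91 ± 0.11 (adjusted p = 0.000137). Oxa1l fell by 0.25 ± 0.07 in SMCs and rose by 0.33 ± 0.10 in PDGFR-β+ cells, a difference of -0.59 ± 0.12 (adjusted p = 0.00317). These genes were chosen after their values were seen, and the comparisons share the libraries used above.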
